A study of Mus musculus with 14 samples.

Results

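The tripartite motif (TRIM) family is a group of genes that encode proteins with a RING finger, B-box and coiled-coil domains. Genes were taken as members when their symbol was Trim followed by digits and an optional letter, they were not pseudogenes, and their mean level reached 1 CPM (a count scaled to the size of its library) in at least 1 of 6 groups of libraries. This gave 48 members of 68 such symbols, out of 34866 gene identifiers in each table. The members nearest to the limit were Trim69, with a highest group mean of 1.01 CPM, and Trim62, with 1.04 CPM, and the nearest genes outside it were Trim29, with 0.865 CPM, and Trim43c, with 0.782 CPM.

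RNA was sequenced from 3 mouse tumour cell lines 24 h after a RIG-I or control agonist was added, both at 0.5 ug/ml, as stranded poly(A) libraries from wells seeded with 100000 cells. The lines were CT26, a colorectal carcinoma of BALB/c mice with 3 libraries per agonist, E0771, a mammary cancer line of C57BL/6 mice with 2 libraries per agonist, and MC38, a colon adenocarcinoma line of C57BL/6 mice with 2 libraries per agonist. The CT26 libraries held 32826742 to 40564102 counts, those of E0771 12413347 to 13399247 and those of MC38 12347361 to 18964563. Separate cultures are not mentioned in the labels, so a p-value here reflects the spread of these libraries alone, which can be technical. Each line is a culture of 1 tumour type, and no untreated cells were analysed here. Of 6 leukocyte markers, each library held at most 0.768 CPM in sum. The 5 epithelial markers Epcam, Cdh1, Krt8, Krt18 and Krt19 summed to 15.9 to 17.9 CPM with the RIG-I agonist and 20.5 to 25.2 CPM with the control agonist in CT26, and to 209 to 236 CPM and 223 to 278 CPM in E0771. In MC38 they summed to 0.158 to 0.163 CPM with the RIG-I agonist and 0.193 to 0.614 CPM with the control agonist, close to 0 in a line labelled as an adenocarcinoma. Krt8 made up nearly all of the E0771 sum, at means of 222 CPM with the RIG-I agonist and 250 CPM with the control agonist. Krt18 and Krt19 were at 0 there. In CT26 nearly all of the sum was Krt18, at means of 16.3 CPM with the RIG-I agonist and 22.7 CPM with the control agonist. Epcam was at 0 in CT26 and MC38. Of the 2 mesenchymal markers, Vim averaged at least 1605 CPM in every group, and Fn1 averaged 536 to 1299 CPM in CT26 and MC38 but 0.231 CPM with the RIG-I agonist and 0.199 CPM with the control agonist in E0771. Vim and Fn1 fell with the RIG-I agonist in CT26 (log2 fold changes -0.18 and -0.79) and in MC38 (-0.32 and -0.63), and their part in the results was not tested.

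Most TRIM proteins are ubiquitin ligases, and many act in antiviral defence. RIG-I, encoded by Ddx58, senses viral RNA in the cytosol and signals through the mitochondrial protein MAVS to induce type I interferon, and secreted interferon then induces many further genes, several TRIM genes among them. TRIM25 is known for adding ubiquitin to RIG-I, TRIM21 for binding antibody-coated virus inside cells, and primate TRIM5 for blocking retroviral capsids. Mice carry a cluster of relatives of that gene on chromosome 7, with Trim5, Trim6, Trim12a, Trim12c, Trim30a to Trim30d, Trim34a and Trim34b. Other members have roles away from infection: Trim28 and Trim33 encode chromatin regulators, and Trim71 encodes an RNA-binding protein of stem cells.

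Promoter windows are shown first, with a search for a short sequence. The windows were those of RefSeq on GRCm38.p6, from 250 bases before an annotated start to 50 bases after it, and 38 of the 48 members had at least 1. They were searched on both strands for GAAANNGAAA, the core of the element bound by interferon regulatory factors, where N is any base and the opposite strand reads TTTCNNTTTC. The motif was present in 9 of these 38 members (23.7%), against 3.99% of 27025 genes with a window and 3.44% of 32851 windows. It was present in 6 of the 7 members that rose in all 3 lines, Trim25 being the exception, and in 3 of the 31 other members with a window, namely Trim2, Trim5 and Trim12a. The share among all genes that rose in all 3 lines was not counted, so this is not shown to be particular to TRIM members. The stretches of Trim5, Trim12a and Trim12c, and those of Trim30a and Trim30d, are near-identical and are not independent cases. Among those without the motif in their window, Trim6, Trim30b, Trim30c, Trim34b and Trim56 rose in CT26 too. The only Trim30b window, at chr7:104358597-104358896, lies inside the gene, whose annotated 5′ end is at 104369884. That end was not searched. A match is a description of the letters and no measurement of binding.

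The stretches around the matches are printed 5′ to 3′ on the strand of the gene, with the motif in capitals, for members whose levels are described below. Trim21 lies on the minus strand at chr7:102565434-102565489 and holds overlapping matches that begin 14 and 20 bases into the transcript. Trim26 lies on the plus strand at chr17:36836966-36837021, where overlapping matches begin 160 and 154 bases before the start.
Trim21: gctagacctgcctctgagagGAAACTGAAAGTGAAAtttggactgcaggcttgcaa
Trim26: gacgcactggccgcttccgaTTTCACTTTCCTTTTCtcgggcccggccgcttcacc

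For the chromosome 7 cluster, Trim34a lies on the plus strand at chr7:104244447-104244496, and the others lie on the minus strand. Trim30a has a window with a match at chr7:104446094-104446143 and another at chr7:104465200-104465249, and Trim30d has one at chr7:104507861-104507910. Trim5 is at chr7:104288126-104288175, Trim12a at chr7:104315456-104315505 and Trim12c at chr7:104353349-104353398.
Trim34a: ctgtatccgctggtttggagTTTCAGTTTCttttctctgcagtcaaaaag
Trim30a, first window: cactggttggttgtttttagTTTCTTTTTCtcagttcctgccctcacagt
Trim30a, second window: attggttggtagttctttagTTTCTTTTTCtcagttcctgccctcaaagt
Trim30d: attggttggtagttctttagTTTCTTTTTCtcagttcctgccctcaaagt
Trim5: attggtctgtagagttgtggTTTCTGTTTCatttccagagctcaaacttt
Trim12a: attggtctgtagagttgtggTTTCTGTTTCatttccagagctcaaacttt
Trim12c: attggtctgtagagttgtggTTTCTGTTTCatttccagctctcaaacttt

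The 50 bases printed for Trim30d differed at 0 positions from those of the second Trim30a window and at 12 from those of the first. Trim5 and Trim12a differed from each other at 0 positions, and each differed from Trim12c at 2. These near-identical stretches lie at genes that were measured at quite different levels, as described below. The match in Trim2, which encodes an NHL-repeat ligase best known in neurons, began 29 bases into the transcript, and Trim2 was lower with the RIG-I agonist in CT26 (log2 fold change -0.46, adjusted p = 2.04e-04). Trim14, which rose in CT26 and MC38, was among the 10 members without a window.

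**Figure D1:**
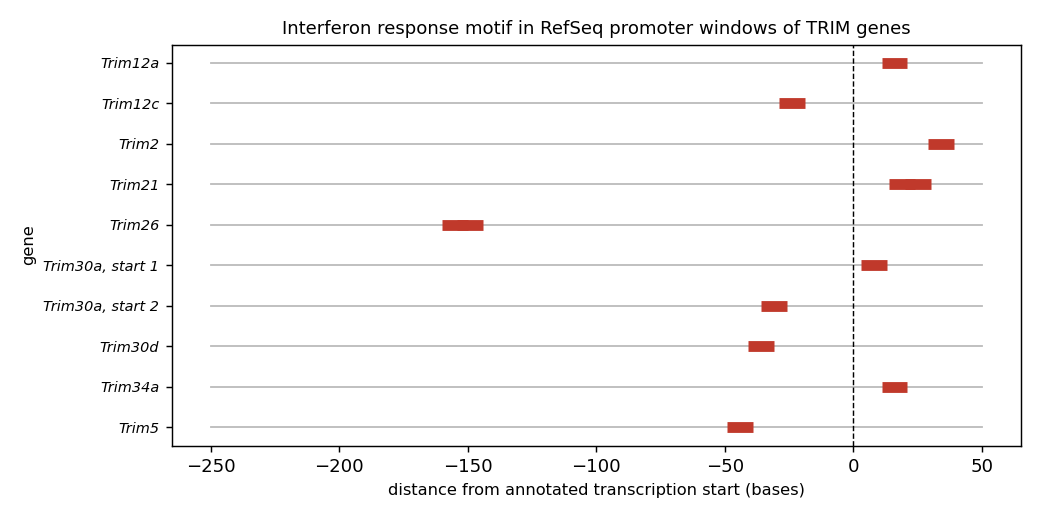
Positions of the interferon response motif (red bars) in the 300-base RefSeq promoter windows (grey lines) of the 9 TRIM genes that hold it, by distance in bases from the annotated start (dashed line). Trim30a has 2 starts, and in every gene but Trim26, where the matches begin 160 and 154 bases before the start, the motif lies within 50 bases of the start.

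Within each line, the RIG-I agonist was compared with the control agonist by edgeR's quasi-likelihood test on all genes, and a gene was called when its Benjamini-Hochberg adjusted p was under 0.05. Levels are CPM on scaled library sizes, and in bulk libraries a change in the number of responding cells and in RNA per cell cannot be told apart. In CT26, 46 members passed the filter on low counts, of which 21 rose and 10 fell, against 19.8% of all genes tested that rose and 18.6% that fell. In E0771, 39 members were tested, 7 rose (1.53% of all genes tested rose) and 0 fell (0.0256% fell). At an unadjusted p under 0.05, 13 members were higher and 0 lower in E0771, and DESeq2 called 9 higher and 0 lower. In 1 fit of all 14 libraries 13 members were higher and 1 lower in E0771. With the replicate number as a block, more members were called in both directions in E0771, as given at the end. In MC38, 43 members were tested, of which 16 rose and 3 fell, against 18.9% and 16.9% of all genes tested. The median log2 fold change of the tested members was 0.16 (CT26), 0.15 (E0771) and 0.12 (MC38), beside 0.00061, -0.0075 and -0.0046 over all genes tested.

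The members that rose in all 3 lines were Trim12c, Trim21, Trim25, Trim26, Trim30a, Trim30d and Trim34a. They were 7 of 38 members tested in all 3 lines (18.4%), against 1.56% of the 10690 genes tested in all 3 lines. They made up 33.3% of the members that rose in CT26, 100% of those in E0771 and 43.8% of those in MC38. Over all genes, 167 rose in all 3 lines, beside 2751 that rose in CT26, 180 in E0771 and 2338 in MC38. Most genes that rose in E0771 thus rose in all 3 lines, and the 100% is no trait of the TRIM members. A further 5 members, Trim12a, Trim14, Trim30b, Trim30c and Trim56, rose in CT26 and MC38 without being called in E0771. Only 1 member, Trim39, was called in opposite directions in different lines. The 11 members called in no line were Trim3, Trim11, Trim23, Trim24, Trim28, Trim32, Trim36, Trim41, Trim46, Trim62 and Trim68, with log2 fold changes of -0.68 to 0.27 wherever they were tested.

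**Figure D2:**
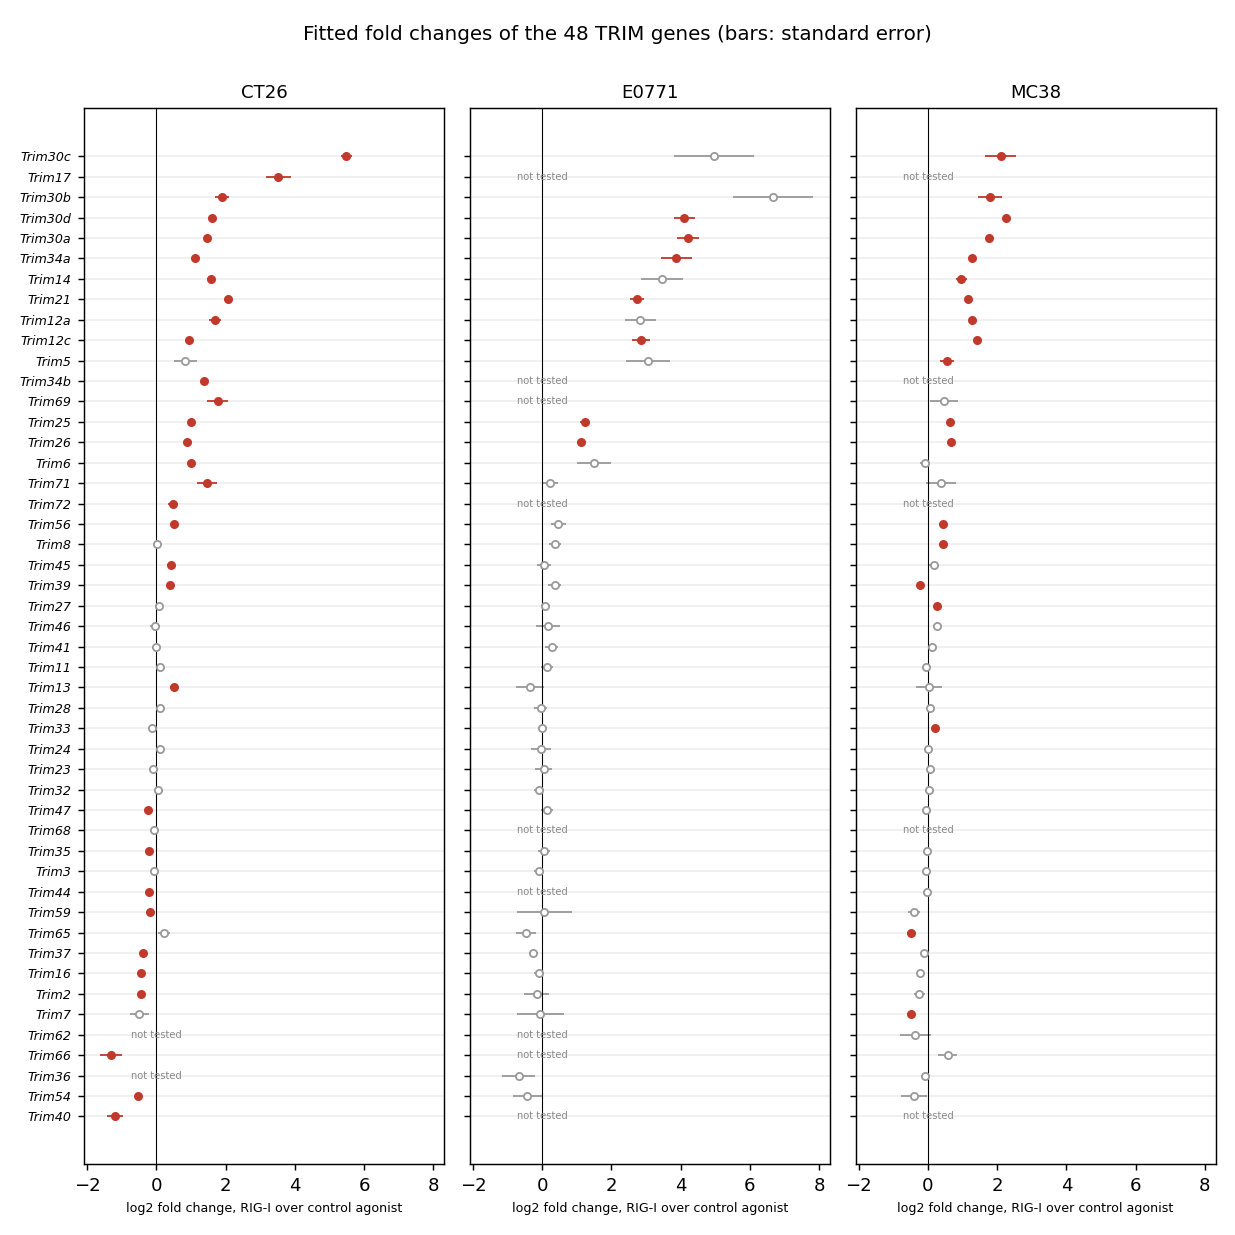
Log2 fold change, RIG-I over control agonist, of the 48 TRIM genes in the 3 lines, with bars of 1 standard error, sorted by the mean over lines. Filled red points were called at an adjusted p under 0.05 and open points were not, so that 21, 7 and 16 filled points lie right of 0 in CT26, E0771 and MC38, and 10, 0 and 3 lie left of it.

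Among the regulators of RNA sensing and interferon signalling, 15 of 17 listed genes were members. In CT26, 6 of 15 tested rose and 3 fell, in E0771 3 of 12 rose and 0 fell, and in MC38 6 of 13 rose and 1 fell. Their median log2 fold changes were 0.10, 0.12 and 0.057 in CT26, E0771 and MC38. Of all genes tested in these lines, 19.8%, 1.53% and 18.9% rose, and 18.6%, 0.0256% and 16.9% fell. The 2 listed genes that were not members, Trim31 and Trim38, stayed under the level limit. The 5 described in full below are Trim25, Trim21, Trim26, Trim14 and Trim56.

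Trim25 (chr11:88999376-89020293, GRCm38, plus strand) encodes the ligase known for activating RIG-I. In CT26 it was at 228, 229.7 and 239 CPM with the RIG-I agonist, against 130.3, 109.6 and 107 CPM with the control agonist (log2 fold change 1.01, SE 0.069, adjusted p = 7.67e-08). In E0771 it was at 214 and 244 CPM with the RIG-I agonist, against 106 and 89.7 CPM with the control agonist (log2 fold change 1.23, SE 0.15, adjusted p = 0.0326). In MC38 it was at 332 and 335 CPM with the RIG-I agonist, against 213 and 212 CPM with the control agonist (log2 fold change 0.65, SE 0.035, adjusted p = 2.41e-12). Every library with the RIG-I agonist was above every control library of its line, and the control level of MC38 was nearly that of the RIG-I agonist in the other lines. The E0771 call was lost without E0771 control library 2 (adjusted p = 0.102) and without RIG-I agonist library 2 (adjusted p = 0.0612).

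Trim21 (chr7:102557921-102565486, minus strand), the cytosolic antibody receptor, was at 80.8, 89.5 and 86.8 CPM with the RIG-I agonist, against 19.3, 20.1 and 21.9 CPM with the control agonist in CT26 (log2 fold change 2.07, SE 0.070, adjusted p = 2.34e-11). In E0771 its levels were 52.5 and 65.4 CPM with RIG-I agonist against 9.58 and 8.06 CPM with control agonist (log2 fold change 2.74, SE 0.19, adjusted p = 0.00761). In MC38 they were 58.9 and 62.8 CPM with RIG-I agonist against 29.8 and 24.9 CPM with control agonist (log2 fold change 1.15, SE 0.076, adjusted p = 1.54e-10). The groups did not overlap in any line. With the RIG-I agonist the highest line mean was 1.45 times the lowest, while with the control agonist it was 3.10 times the lowest, E0771 being lowest under both.

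Trim26 (chr17:36837134-36859398, plus strand) encodes a ligase reported to act on interferon-beta induction. It was at 80.9, 75.6 and 82.5 CPM with the RIG-I agonist, against 47, 42.1 and 41.2 CPM with the control agonist in CT26 (log2 fold change 0.87, SE 0.068, adjusted p = 2.38e-07). E0771 had 61.9 and 68 CPM with RIG-I agonist against 29.4 and 29.8 CPM with control agonist (log2 fold change 1.13, SE 0.13, adjusted p = 0.0264), and MC38 had 96.6 and 95.3 CPM with RIG-I agonist against 60.9 and 61 CPM with control agonist (log2 fold change 0.65, SE 0.050, adjusted p = 9.06e-10). All libraries with the RIG-I agonist were above the controls of their line. In E0771 the call was lost without either control library (adjusted p = 0.0836 and 0.084) or without RIG-I agonist library 2 (adjusted p = 0.0696).

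Trim14 (chr4:46493781-46536141, minus strand) encodes an adaptor that supports MAVS signalling at mitochondria. CT26 had 18.4, 18.5 and 16.4 CPM with RIG-I agonist against 6.75, 5.71 and 5.599 CPM with control agonist (log2 fold change 1.56, SE 0.092, adjusted p = 1.05e-08), and MC38 had 10.6 and 9.63 CPM with RIG-I agonist against 4.76 and 5.61 CPM with control agonist (log2 fold change 0.96, SE 0.16, adjusted p = 4.89e-05). In E0771 the levels were 1.897 and 3.59 CPM with RIG-I agonist against 0.234 and 0.247 CPM with control agonist (log2 fold change 3.47, SE 0.61, adjusted p = 0.0923), which did not pass the test. The E0771 controls lay near the level of 3 counts, which is 0.224 to 0.242 CPM per library in that line.

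Trim56 (chr5:137105644-137116209, minus strand), a ligase reported to support signalling from cytosolic DNA and from double-stranded RNA, changed less. CT26 had 180.3, 174 and 181 CPM with RIG-I agonist against 132, 126 and 115 CPM with control agonist (log2 fold change 0.52, SE 0.056, adjusted p = 7.46e-06), and MC38 had 48.8 and 51.4 CPM with RIG-I agonist against 35.6 and 39.6 CPM with control agonist (log2 fold change 0.42, SE 0.068, adjusted p = 4.61e-05). E0771 had 47.2 and 67.4 CPM with RIG-I agonist against 37.6 and 45.4 CPM with control agonist (log2 fold change 0.47, SE 0.22, adjusted p = 0.564), which did not pass the test. CT26 stood above the other lines under both agonists, its mean being 3.56 times the lowest line mean with the RIG-I agonist and 3.31 times with the control agonist. The MC38 call was lost in 1 fit of all 14 libraries (adjusted p = 0.113).

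The remaining listed regulators were Trim13, Trim27, Trim35, Trim40, Trim44, Trim65, Trim11, Trim23, Trim32 and Trim68. Trim27, which encodes the RET finger protein, rose in MC38 only slightly, at 113 ± 6.76 CPM with RIG-I agonist against 93.9 ± 1.801 CPM with control agonist (SD, n = 2; log2 fold change 0.26, adjusted p = 2.32e-04). Trim65, whose product is known for acting on the RNA sensor MDA5, fell in MC38, at 9.76 ± 1.15 CPM with RIG-I agonist against 13.7 ± 0.62 CPM with control agonist (SD, n = 2; log2 fold change -0.48, adjusted p = 0.00453). Trim65 overlaps its neighbour Trim47 on the same strand, so reads of the overlap cannot be told apart. Trim35, a ligase reported to act on IRF7, fell in CT26 at 198 ± 1.25 CPM with RIG-I agonist against 230.3 ± 14.9 CPM with control agonist (SD, n = 3; log2 fold change -0.22, adjusted p = 0.00879), and Trim44 fell there with a log2 fold change of -0.23, adjusted p = 0.0248.

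**Figure D3:**
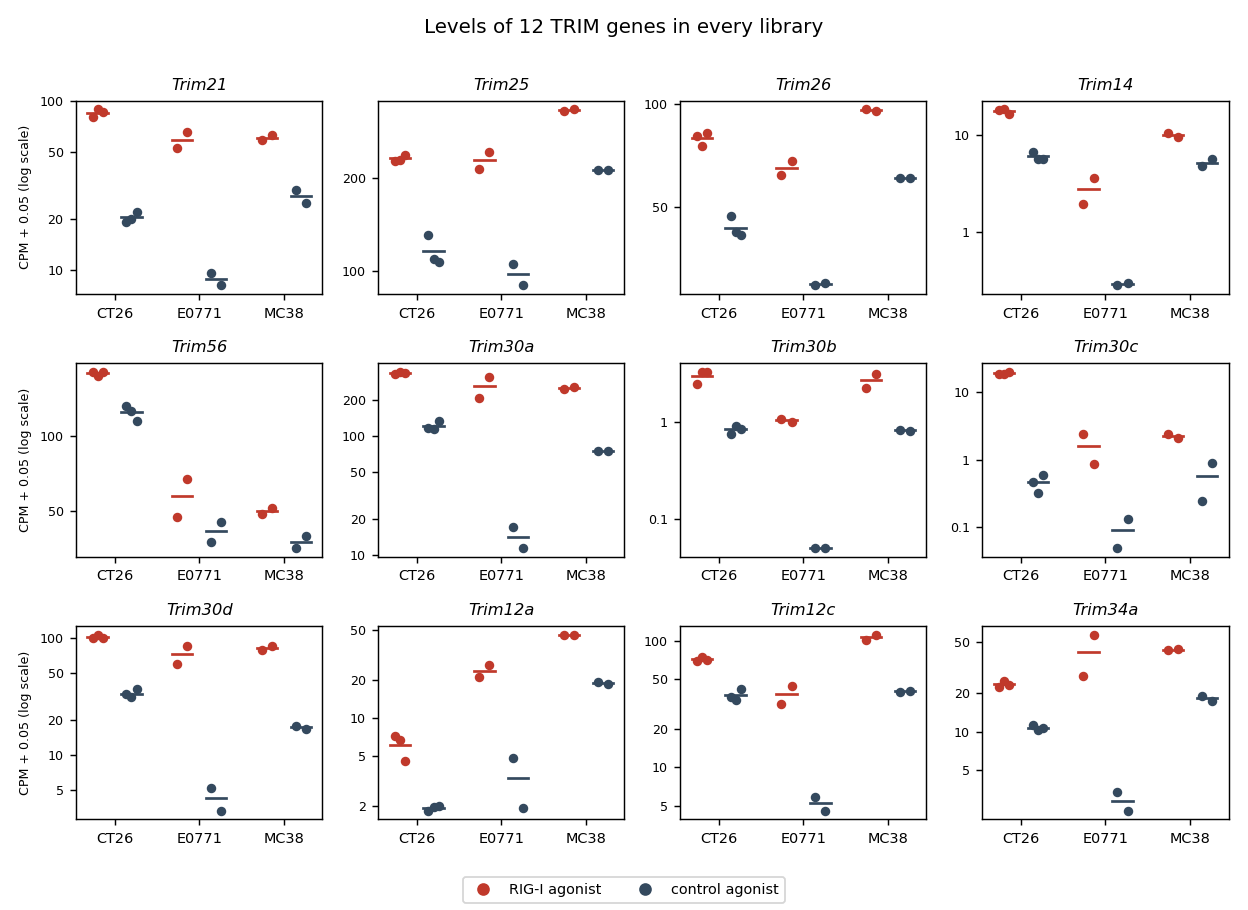
Level of 12 TRIM genes in every library, as CPM plus 0.05 on a log scale, in the 3 lines, with the RIG-I agonist (red) left of the control agonist (dark) and a line at each group mean. Red points lie above the dark points of the same line in every panel, with the E0771 controls lowest of the control groups for all but Trim12a and Trim56. The genes were picked largely for being called, so this separation depends in part on that choice. Its share over all genes was not counted.

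The relatives of Trim5 on chromosome 7, between Trim6 (start 104218793) and Trim30d (end 104507849) on GRCm38, supplied 7 of the 12 members described in full. In CT26, 9 of 10 rose, in E0771 4 of 9 tested rose, and in MC38 8 of 9 tested rose, and 0 fell in any line. Their median log2 fold changes were 1.42, 3.88 and 1.43 in CT26, E0771 and MC38. Over all genes tested, 19.8%, 1.53% and 18.9% rose in these lines, and 18.6%, 0.0256% and 16.9% fell. Summed over the 10 genes, the level was 599.7 ± 13.4 CPM with the RIG-I agonist, against 222 ± 18.8 CPM with the control agonist in CT26 (SD, n = 3 each), a ratio of 2.71. In E0771 it was 444 ± 125 CPM with RIG-I agonist, against 30.5 ± 9.003 CPM with control agonist (SD, n = 2 each), a ratio of 14.5, and in MC38 it was 548 ± 17.9 CPM with RIG-I agonist, against 181 ± 0.847 CPM with control agonist (SD, n = 2 each), a ratio of 3.02. The 3 lines thus lay closer together with the RIG-I agonist than with the control agonist. Of all CPM held by the 48 members, the relatives took 23.98% to 24.8% with the RIG-I agonist against 10.97% to 13.5% with the control agonist in CT26. In E0771 they took 16.4% to 22.6% with the RIG-I agonist against 1.53% to 2.28% with the control agonist. In MC38 they took 21.6% to 22.3% with the RIG-I agonist against 9.60% in both control libraries.

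**Figure D4:**
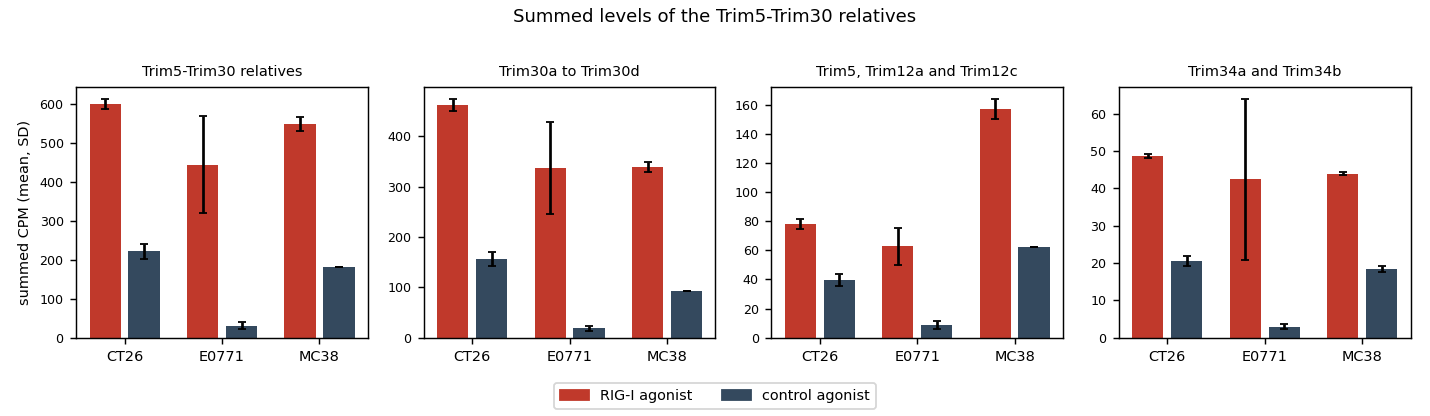
Summed CPM (mean, with bars of 1 SD over 3 libraries in CT26 and 2 in E0771 and MC38) of the 10 Trim5-Trim30 relatives and of 3 groups within them, with the RIG-I agonist (red) left of the control agonist (dark). In all 4 panels the E0771 controls are the lowest bars, at 30.5 CPM for the 10 genes together.

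Single values within the cluster depend on how reads of near-identical transcripts were divided. Of the 31-base words in the annotated transcripts, 69.1% of those of Trim34b were shared with Trim34a. The share of words found in another gene was 51.3% in Trim5, 48.7% in Trim34a, 46.0% in Trim12c, 15.6% in Trim12a, 11.9% in Trim30d, 11.5% in Trim30a, 5.69% in Trim30c, 2.73% in Trim6 and 2.42% in Trim30b. The sums over Trim5, Trim12a and Trim12c and over Trim34a and Trim34b are given beside the single genes.

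Trim30a (chr7:104409025-104465193, minus strand), known in mice for restraining NF-kB signalling, was the most abundant relative. In CT26 it was at 330.1, 346 and 341 CPM with the RIG-I agonist, against 117, 114 and 135 CPM with the control agonist (log2 fold change 1.47, SE 0.068, adjusted p = 6.16e-10). E0771 had 209.8 and 313 CPM with RIG-I agonist against 17 and 11.3 CPM with control agonist (log2 fold change 4.205, SE 0.31, adjusted p = 0.00761). MC38 had 248 and 256 CPM with RIG-I agonist against 74.1 and 74.7 CPM with control agonist (log2 fold change 1.76, SE 0.042, adjusted p = 1.34e-18). The line means spanned a ratio of 1.35 with the RIG-I agonist, against 8.61 with the control agonist, and the lowest control libraries were those of E0771. With the replicate number as a block in edgeR, the E0771 call was lost (adjusted p = 0.106).

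Trim30d (chr7:104470014-104507849, minus strand), a close relative of Trim30a, rose in all 3 lines. It was at 100.02, 107 and 100.4 CPM with the RIG-I agonist, against 33, 31.2 and 36.4 CPM with the control agonist in CT26 (log2 fold change 1.61, SE 0.069, adjusted p = 2.89e-10). In E0771 it was at 59.7 and 86.4 CPM with RIG-I agonist against 5.14 and 3.29 CPM with control agonist (log2 fold change 4.11, SE 0.31, adjusted p = 0.007704), and in MC38 at 79 and 85.3 CPM with RIG-I agonist against 17.7 and 16.7 CPM with control agonist (log2 fold change 2.26, SE 0.071, adjusted p = 1.77e-16). Its E0771 controls were the lowest libraries, and RIG-I agonist levels of the 3 lines lay within a ratio of 1.40 of each other by mean, against 7.96 for the controls.

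Trim30b (chr7:104355382-104369884, minus strand) was low throughout. CT26 had 2.402, 3.22 and 3.25 CPM with RIG-I agonist against 0.694, 0.869 and 0.807 CPM with control agonist (log2 fold change 1.896, SE 0.21, adjusted p = 8.31e-06), and MC38 had 2.197 and 3.104 CPM with RIG-I agonist against 0.772 and 0.768 CPM with control agonist (log2 fold change 1.8003, SE 0.34, adjusted p = 2.72e-04). In E0771 it was at 1.03 and 0.953 CPM with the RIG-I agonist, against 0 and 0 CPM with the control agonist, which is 26 counts against 0. The E0771 mean of Trim30b with the RIG-I agonist was 8.25 times the floor of 3 counts over the control group. This ratio leaves out the counting error of the 26 counts, and the test on all genes did not call Trim30b there (adjusted p = 0.137).

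Trim30c (chr7:104382065-104400837, minus strand) had the largest fold change of any member in CT26. There it was at 18.1, 18.3 and 19.4 CPM with the RIG-I agonist, against 0.416, 0.273 and 0.547 CPM with the control agonist (log2 fold change 5.49, SE 0.15, adjusted p = 2.51e-12). MC38 had 2.36 and 1.999 CPM with RIG-I agonist against 0.193 and 0.845 CPM with control agonist (log2 fold change 2.11, SE 0.45, adjusted p = 9.77e-04), with control libraries that lay far apart. Without MC38 control library 1 the MC38 log2 fold change was 1.35, and without control library 2 it was 3.43, both called. In E0771 the 40 counts with the RIG-I agonist stood against 1 with the control agonist, which is 38.0 times as many per library size (95% counting interval 6.45 to 1540), and the test on all genes did not call it (adjusted p = 0.198). With the RIG-I agonist, the highest line mean of Trim30c was 12.005 times the lowest. For Trim30a that ratio was 1.35.

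Trim12c (chr7:104338754-104353362, minus strand), reported in mice to support interferon induction, was at 69.5, 74.5 and 70.3 CPM with the RIG-I agonist, against 35.6, 34.3 and 41.8 CPM with the control agonist in CT26 (log2 fold change 0.94, SE 0.076, adjusted p = 3.58e-07). E0771 had 31.4 and 43.9 CPM with RIG-I agonist against 5.84 and 4.52 CPM with control agonist (log2 fold change 2.86, SE 0.26, adjusted p = 0.0123), and MC38 had 101 and 112 CPM with RIG-I agonist against 39.4 and 40.1 CPM with control agonist (log2 fold change 1.43, SE 0.059, adjusted p = 2.38e-14). No library with the RIG-I agonist was as low as a control of its line. Trim12a (chr7:104299894-104315466, minus strand) had 7.13, 6.65 and 4.54 CPM with RIG-I agonist against 1.805, 1.91 and 1.95 CPM with control agonist in CT26 (log2 fold change 1.69, SE 0.17, adjusted p = 3.94e-06) and 45.9 and 46.1 CPM with RIG-I agonist against 19.2 and 18.8 CPM with control agonist in MC38 (log2 fold change 1.27, SE 0.074, adjusted p = 9.15e-12). In E0771 it had 21.3 and 26.2 CPM with RIG-I agonist against 4.75 and 1.89 CPM with control agonist (log2 fold change 2.83, SE 0.44, adjusted p = 0.0679), which did not pass the test. Trim12a and Trim12c thus stood in different proportion across lines, Trim12a being lowest in CT26 under both agonists.

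Trim5 (chr7:104263386-104288094, minus strand), the mouse relative named after the primate capsid-binding gene, was called in MC38 alone, at 4.92 ± 0.41 CPM with RIG-I agonist against 3.35 ± 0.18 CPM with control agonist (SD, n = 2; log2 fold change 0.54, adjusted p = 0.0482). That call was lost on leaving out any of the 4 MC38 libraries (adjusted p = 0.0904 to 0.188), by DESeq2 (adjusted p = 0.42), without the filter (adjusted p = 0.0528) and in 1 fit of all 14 libraries (adjusted p = 0.424). Trim5 was at 0.832 ± 0.15 CPM with RIG-I agonist against 0.464 ± 0.20 CPM with control agonist in CT26 (SD, n = 3; log2 fold change 0.83, adjusted p = 0.0639) and at 1.396 ± 0.41 CPM with RIG-I agonist against 0.1601 ± 0.0062 CPM with control agonist in E0771 (SD, n = 2; log2 fold change 3.05, adjusted p = 0.1499). Summed over Trim5, Trim12a and Trim12c, which share sequence, the level was 78.4 ± 3.31 CPM with the RIG-I agonist, against 39.6 ± 3.95 CPM with the control agonist in CT26 (SD, n = 3 each). The sums were 62.8 ± 12.8 CPM with RIG-I agonist against 8.66 ± 2.95 CPM with control agonist in E0771 and 157 ± 7.12 CPM with RIG-I agonist against 62.1 ± 0.026 CPM with control agonist in MC38 (SD, n = 2 each), so the summed level was higher in every line with the RIG-I agonist.

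Trim34a (chr7:104244457-104262234, plus strand) encodes the counterpart of human TRIM34, which acts with TRIM5 on retroviruses. It was at 22.5, 24.7 and 23.1 CPM with the RIG-I agonist, against 11.4, 10.3 and 10.7 CPM with the control agonist in CT26 (log2 fold change 1.12, SE 0.073, adjusted p = 3.53e-08). E0771 had 27.1 and 57.4 CPM with RIG-I agonist against 3.35 and 2.38 CPM with control agonist (log2 fold change 3.88, SE 0.46, adjusted p = 0.0278), and MC38 had 43.5 and 43.9 CPM with RIG-I agonist against 19 and 17.5 CPM with control agonist (log2 fold change 1.26, SE 0.076, adjusted p = 2.04e-11). The E0771 libraries with the RIG-I agonist differed from each other by more than any other pair of this gene. Without E0771 RIG-I agonist library 2 the log2 fold change there was 3.23 and called, and without either E0771 control library it was not called (adjusted p = 0.0632 and 0.101).

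Trim34b (chr7:104329471-104336909, plus strand) was measured in CT26, at 25.6, 24 and 26.1 CPM with the RIG-I agonist, against 9.58, 8.76 and 11 CPM with the control agonist (log2 fold change 1.37, SE 0.086, adjusted p = 2.34e-08). It had 5 counts with the RIG-I agonist against 0 with the control agonist in E0771, too few for a fold change. In MC38 it had at most 0.307 CPM in any library. The summed level of Trim34a and Trim34b was 48.7 ± 0.57 CPM with RIG-I agonist against 20.5 ± 1.38 CPM with control agonist in CT26 (SD, n = 3 each), 42.4 ± 21.6 CPM with RIG-I agonist against 2.87 ± 0.68 CPM with control agonist in E0771 and 43.9 ± 0.31 CPM with RIG-I agonist against 18.4 ± 0.87 CPM with control agonist in MC38 (SD, n = 2 each). Summed in this way the lines lay close together with the RIG-I agonist.

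Trim6 (chr7:104218793-104235152, plus strand), whose human counterpart supports the kinase IKKe in interferon signalling, rose in CT26 at 9.61 ± 1.18 CPM with RIG-I agonist against 4.83 ± 0.55 CPM with control agonist (SD, n = 3; log2 fold change 0.99, adjusted p = 2.18e-05). It was at 7.49 ± 0.12 CPM with RIG-I agonist against 7.94 ± 0.15 CPM with control agonist in MC38 (SD, n = 2; log2 fold change -0.083, adjusted p = 0.6997) and at 1.71 ± 0.070 CPM with RIG-I agonist against 0.597 ± 0.15 CPM with control agonist in E0771 (SD, n = 2; log2 fold change 1.5001, adjusted p = 0.369). Among the relatives tested there it was the 1 not called in MC38.

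Outside sensing and the chromosome 7 cluster, the changes were smaller or at low levels. Trim17, which encodes a ligase known from dying neurons, rose in CT26 at 1.35 ± 0.063 CPM with RIG-I agonist against 0.116 ± 0.068 CPM with control agonist (SD, n = 3; log2 fold change 3.52, adjusted p = 4.86e-06), and was too low for testing within the other lines, at 0.412 ± 0.25 CPM with RIG-I agonist against 0.601 ± 0.080 CPM with control agonist in E0771 and 0.2799 ± 0.051 CPM with RIG-I agonist against 0.532 ± 0.12 CPM with control agonist in MC38 (SD, n = 2 each). Of the 31-base words of Trim17, 18.2% are shared with Hist3h2a, a histone gene. Hist3h2a averaged 5.15 CPM with RIG-I agonist against 2.75 CPM with control agonist in CT26, 5.65 CPM with RIG-I agonist against 2.63 CPM with control agonist in E0771 and 2.85 CPM with RIG-I agonist against 2.86 CPM with control agonist in MC38, and its part in the Trim17 values was not tested. Trim69, a centrosomal ligase, rose in CT26 at 0.993 ± 0.19 CPM with RIG-I agonist against 0.287 ± 0.033 CPM with control agonist (SD, n = 3; log2 fold change 1.77, adjusted p = 4.33e-04), and Trim71, the stem-cell RNA-binding ligase, at 1.41 ± 0.40 CPM with RIG-I agonist against 0.507 ± 0.084 CPM with control agonist (SD, n = 3; log2 fold change 1.47, adjusted p = 0.00128). These 3 increases began from levels under 1 CPM.

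Trim71 was at 14.9 ± 2.52 CPM with RIG-I agonist against 12.6 ± 2.06 CPM with control agonist in E0771 (SD, n = 2; log2 fold change 0.24, adjusted p = 0.821) and was not called there. Trim13, an endoplasmic reticulum membrane ligase, rose in CT26 at 4.85 ± 0.28 CPM with RIG-I agonist against 3.41 ± 0.26 CPM with control agonist (SD, n = 3; log2 fold change 0.51, adjusted p = 0.00609), and 28.7% of its words are shared with Gm9359, which had 0 CPM in every group. Trim40, a ligase expressed mainly in gut and reported to restrain sensing, fell in CT26 at 0.745 ± 0.16 CPM with RIG-I agonist against 1.699 ± 0.041 CPM with control agonist (SD, n = 3; log2 fold change -1.18, adjusted p = 0.00127) and was at or near 0 in the other lines. Trim66, a testis chromatin regulator, fell at 0.327 ± 0.087 CPM with RIG-I agonist against 0.817 ± 0.12 CPM with control agonist (SD, n = 3; log2 fold change -1.31, adjusted p = 0.00469), and Trim54, a muscle microtubule-binding member, fell at 5.35 ± 0.44 CPM with RIG-I agonist against 7.72 ± 0.35 CPM with control agonist (SD, n = 3; log2 fold change -0.53, adjusted p = 0.00129). In 1 fit of all 14 libraries the CT26 calls of Trim13 (adjusted p = 0.156) and Trim54 (adjusted p = 0.0886) were lost.

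Trim39, which encodes a ligase of the cell cycle and apoptosis, rose in CT26 at 27.2 ± 1.300 CPM with RIG-I agonist against 20.9 ± 1.66 CPM with control agonist (SD, n = 3; log2 fold change 0.38, adjusted p = 0.00135) and fell in MC38 at 27.8 ± 1.06 CPM with RIG-I agonist against 32.4 ± 0.33 CPM with control agonist (SD, n = 2; log2 fold change -0.22, adjusted p = 0.0255). The MC38 call was lost without either control library or RIG-I agonist library 1 (adjusted p = 0.0703 to 0.142), by DESeq2 (adjusted p = 0.418) and in 1 fit of all 14 libraries (adjusted p = 0.317). The difference between CT26 and MC38 was not called by edgeR (adjusted p = 0.0525) but was called by limma voom, a second method described below. The other members that rose were Trim45 and Trim72 in CT26 and Trim8 and Trim33 in MC38, with log2 fold changes of 0.21 to 0.48. The other members that fell were Trim2, Trim16, Trim37, Trim47 and Trim59 in CT26 and Trim7 in MC38, with log2 fold changes of -0.48 to -0.19.

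Other members were grouped by structural class. Their counts are to be read against all genes tested, of which 19.8% rose and 18.6% fell in CT26. Those shares were 1.53% and 0.0256% in E0771, and 18.9% and 16.9% in MC38. Of the 4 TIF1 chromatin regulators Trim24, Trim28, Trim33 and Trim66, 0 rose and 1 fell in CT26, 1 rose and 0 fell in MC38, and neither change occurred in the 3 tested in E0771, with medians of -0.0091 in CT26, 0.13 in MC38 and -0.035 in E0771. Of the 4 NHL-repeat members Trim2, Trim3, Trim32 and Trim71, 1 rose and 1 fell in CT26, and 0 were called in the other lines, with medians of -0.014 in CT26, -0.092 in E0771 and -0.0099 in MC38. Of the microtubule-binding members Trim36, Trim46 and Trim54, 2 were tested in CT26, where 1 fell, and 3 in each other line, where 0 were called, with medians of -0.28, -0.43 and -0.076 in CT26, E0771 and MC38. The transmembrane pair Trim13 and Trim59 gave 1 increase and 1 decrease in CT26 and 0 calls elsewhere, with medians of 0.16 in CT26, -0.14 in E0771 and -0.19 in MC38. Trim23, with its ARF domain, was called in no line, and Trim37, with its MATH domain, fell in CT26 alone (log2 fold change -0.38).

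Trim28, the corepressor of retroelements, had the highest level per kilobase of exon among the members in all 6 groups, at 87.9, 86.6 and 114 CPM per kb with the RIG-I agonist in CT26, E0771 and MC38, against 81.3, 89.1 and 110.1 CPM per kb with the control agonist. Its difference between agonists was not called in any line, with log2 fold changes of 0.11, -0.041 and 0.049. Trim30a came second in each RIG-I agonist group, at 82.4, 63.6 and 61.3 CPM per kb. With the control agonist Trim30a was at 29.7 CPM per kb in CT26 and 18.1 CPM per kb in MC38. Transcript lengths here are unions of annotated exons, so these levels depend on the annotation as well.

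Whether the lines differed in response was tested as an interaction in 1 edgeR fit of all 14 libraries. In that fit the spread was shared, with a common dispersion of 0.0149, beside 0.0104 in CT26, 0.041 in E0771 and 0.000927 in MC38 fitted alone. Against the spread of each line alone, this understates the error in E0771 and overstates it in MC38. The same contrasts were also tested with limma voom and 1 variance factor per line, chosen after the spreads had been seen. On simulated counts given each line's own spread, the shared-spread test called far more unchanged genes than its threshold allows for CT26 minus E0771, and gave too many small p-values for E0771 minus MC38. Voom exceeded its threshold on the same counts for CT26 minus MC38 and, by less than edgeR, for CT26 minus E0771. Neither adjusted p is therefore exact, and only genes called by both are written as different between lines below. The simulation gave every gene of a line the same spread and held no effect shared by same-numbered libraries. Its error rates can therefore differ from those in these data.

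For CT26 minus E0771, 1 member was higher (1.06% of all genes tested were higher) and 7 were lower (2.81% were lower). The differences of log2 fold changes were -2.77 (SE 0.24, adjusted p = 5.25e-05) for Trim30a, -2.54 (SE 0.24, adjusted p = 9.90e-05) for Trim30d, -2.79 (SE 0.38, adjusted p = 0.00148) for Trim34a and -1.96 (SE 0.21, adjusted p = 2.27e-04) for Trim12c. These 4 rose by less in CT26 than in E0771 by both methods. Trim17 was 3.99 (SE 0.68, adjusted p = 0.00521) by edgeR and also called by voom, and Trim21 at -0.71 (SE 0.17, adjusted p = 0.0382), Trim14 at -1.97 (SE 0.47, adjusted p = 0.0343) and Trim30b were called by edgeR alone. Trim14 and Trim21 also lost the call on leaving out most single libraries of CT26 or E0771 (highest adjusted p among those 0.153 for Trim14 and 0.135 for Trim21), and Trim30b lost it without either E0771 control (adjusted p = 0.129 and 0.138).

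For E0771 minus MC38, 8 members were higher (1.81% of all genes tested) and 0 lower (0.3% of all genes tested, 0 members at an unadjusted p under 0.05 and 0 by DESeq2). Trim30a differed by 2.43 (SE 0.26, adjusted p = 2.34e-04), Trim30d by 1.84 (SE 0.27, adjusted p = 0.00211) and Trim21 by 1.58 (SE 0.19, adjusted p = 4.62e-04), in both methods. These 3 rose by more in E0771 than in MC38. Trim34a, Trim12c, Trim14, Trim6 and Trim30b were called by edgeR alone, at differences of 2.61, 1.43, 2.52, 1.58 and, for Trim30b with its controls at 0 in E0771, a fitted value that depends on the prior count. Without E0771 control library 2 or MC38 control library 2 the count fell to 5 members.

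For CT26 minus MC38, 4 members were higher (1.98% of all genes tested) and 0 lower (1.82% of all genes tested). At an unadjusted p under 0.05, 8 members were lower, and DESeq2 called 4. Trim21 differed by 0.86 (SE 0.16, adjusted p = 0.00961), Trim6 by 1.02 (SE 0.22, adjusted p = 0.0229), Trim30c by 3.32 (SE 0.76, adjusted p = 0.0289) and Trim17 by 4.33 (SE 0.70, adjusted p = 0.00435), in both methods. Their log2 fold changes were more positive in CT26 than in MC38. The count was 2 without CT26 RIG-I agonist library 1, CT26 control library 2, MC38 RIG-I agonist library 2 or either MC38 control library, and 1 without MC38 RIG-I agonist library 1. Trim30c lost the call on leaving out any of 8 single libraries, 5 of CT26 and 3 of MC38 (adjusted p = 0.0559 to 0.492), and its difference was 1.98 without MC38 control library 2. Trim6 lost it without any of the 4 MC38 libraries or either of 2 CT26 libraries (adjusted p = 0.0597 to 0.115), and Trim21 without MC38 control library 1 or RIG-I agonist library 1 (adjusted p = 0.0876 and 0.0669). Without an E0771 library, 3 to 5 members were lower in CT26 than in MC38.

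For most members described in full, control levels differed between lines more than levels with the RIG-I agonist did. These members were picked largely for being called with the RIG-I agonist, so the pattern depends in part on that choice. Among the 12 members described in full, 11 had counts in all control groups, and in 10 of them the ratio of the highest to the lowest line mean was smaller with the RIG-I agonist. In 9 of the 11 the lowest control mean was that of E0771. The exception in the ratio was Trim56, at 3.56 with the RIG-I agonist against 3.31 with the control agonist. The ratios are levels set across tables that were scaled separately, and no test was made of them.

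Some members were nearly without counts in a whole line, whatever the agonist. A group of 6 members, picked out after the values had been seen, stayed under 0.5 CPM in every library of at least 1 line while reaching a group mean of 3 CPM in another. Trim44, which encodes a member without a RING finger, had 0 counts in the 4 E0771 libraries, 34.6 to 46.7 CPM in CT26 and 95.2 to 101 CPM in MC38. Trim68, a relative of Trim21, had 9.91 to 11.6 CPM in CT26, 0 counts in the 4 E0771 libraries and 1 count in the 4 MC38 libraries. Trim72, known for membrane repair in muscle, had 2.55 to 3.86 CPM in CT26 and 1 count in all libraries of each other line. Trim36, a microtubule-binding member, had 0 to 0.180 CPM in CT26, 0.791 to 1.81 CPM in E0771 and 8.31 to 9.06 CPM in MC38. Trim66 was at 0.0733 to 0.395 CPM in E0771 and 2.12 to 4.21 CPM in MC38, and Trim34b was described above.

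Trim44 lies at chr2:102300119-102407828 (GRCm38, minus strand). Of its neighbours, Ldlrad3 was at 0.0733 to 0.395 CPM in E0771, against 10.2 to 15.4 CPM in CT26 and 41.2 to 48.5 CPM in MC38. Between Trim44 and Cd44, E0771 had 0 CPM of Fjx1, at most 0.158 CPM of Pamr1 and at most 0.234 CPM of Slc1a2. Fjx1 and Pamr1 were also low in CT26 and MC38, at most 1.89 CPM in any library. Slc1a2 was at 63.5 to 70.2 CPM in CT26 and 0.154 to 0.473 CPM in MC38. Further out, Commd9 was at 14.6 to 17.1 CPM and Cd44 at 192 to 273 CPM in E0771, so counts were present on both sides. The files hold counts per gene and no genomic coverage, and a loss of the locus was not tested.

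**Figure D5:**
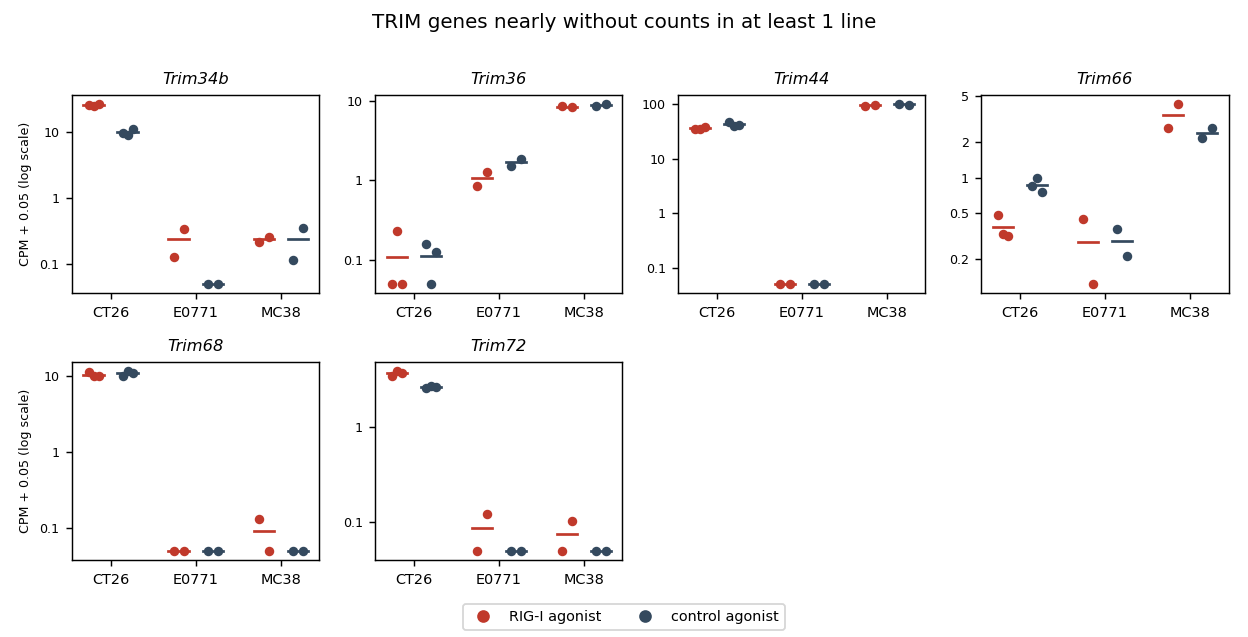
Level of 6 TRIM genes in every library, as CPM plus 0.05 on a log scale, with the RIG-I agonist (red) left of the control agonist (dark) and a line at each group mean. Trim44 and Trim68 sit at 0 counts (drawn at 0.05) in all E0771 libraries, and the agonist groups of a line lie close together except for Trim34b and Trim66 in CT26.

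Genes of the same pathway without a TRIM symbol were listed beside the family. Of 22 listed genes, 19 rose and 1 fell in CT26, 12 rose and 0 fell in E0771, and 15 rose and 1 fell in MC38, with median log2 fold changes of 1.62, 2.77 and 0.92. The shares of all genes tested that rose were 19.8%, 1.53% and 18.9%, and 18.6%, 0.0256% and 16.9% fell. Ddx58, the sensor itself, averaged 387 ± 13.2 CPM with the RIG-I agonist, against 143 ± 9.61 CPM with the control agonist in CT26 (SD, n = 3 each), 242 ± 5.08 CPM with RIG-I agonist against 50.1 ± 21.1 CPM with control agonist in E0771 and 383 ± 0.55 CPM with RIG-I agonist against 222 ± 0.15 CPM with control agonist in MC38 (SD, n = 2 each). Rnf135, which encodes RIPLET, a further ligase of RIG-I, rose in CT26 (log2 fold change 0.95, adjusted p = 4.22e-06) and did not pass the test in E0771 (0.69, adjusted p = 0.387) or MC38 (0.10, adjusted p = 0.705). The genes that fell were Mavs in CT26 and Irf3 in MC38. Thus Trim25 was called in all 3 lines and Rnf135 in 1, and a difference in response between these genes was not tested.

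Of 7 genes that encode TRIM proteins under other symbols, Pml, whose protein forms nuclear bodies, rose in all 3 lines. Pml averaged 127 ± 1.53 CPM with RIG-I agonist against 66.0 ± 6.89 CPM with control agonist in CT26 (SD, n = 3 each), 102 ± 4.01 CPM with RIG-I agonist against 40.3 ± 2.41 CPM with control agonist in E0771 and 122 ± 0.45 CPM with RIG-I agonist against 68.0 ± 3.24 CPM with control agonist in MC38 (SD, n = 2 each). Mid2 fell in CT26 and MC38, and Mid1 and Rnf207 fell in MC38. The other 3, Mefv, Cmya5 and Bspry, were too low to be tested in any line.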

How the data were processed

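The authors deposited 3 tables, one per cell line, of estimated counts per gene. Salmon, DESeq2 and GRCm38 are named in the submitters' processing notes without roles; their versions and the annotation are not given in the sources used here. Estimated counts divide reads of near-identical transcripts, which bears most on the chromosome 7 cluster. They were rounded to whole numbers and tested with edgeR 4.0.16 in R 4.3.3 (robust quasi-likelihood, TMM, filterByExpr at a minimum count of 10, Benjamini-Hochberg over all genes tested), per line. Differences between lines were interactions in 1 fit of all 14 libraries. Gene identifiers were matched without version to GENCODE M21 (34652 of 34866), and positions are 1-based on GRCm38. Fitted folds use a prior count of 0.125. Total counts per library were 12347361 to 40564102. Replicates of a group differed by more than sampling noise (chi-square 2.2 to 40.9 per degree of freedom over genes with 10 or more counts in a pair), so each library was counted once.

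The members, gene lists and rules were chosen with earlier results of these data known. Values in every library were given for members called in at least 2 lines with an absolute log2 fold change of 1 or more in at least 1 line, and for Trim14, Trim21, Trim25 and Trim56. Short values were given for other members called with a change of 0.5 or more, with a called interaction or with opposite calls. One pathway gene was listed under an older symbol and read as Cgas. Floors of 3 counts and intervals at 95% cover counting error only. A ratio to such a floor leaves out the counting error of the level above it. The fits were tested on simulated data with the spread of each line, the same for all genes of that line. Within a line false calls stayed near the threshold, slightly above it in CT26. In E0771 only a minority of the genes made to change were recovered. The interaction test with a shared spread exceeded its threshold for CT26 minus E0771, as voom did, by less, for both contrasts with CT26. Alternatives were DESeq2 1.42.0, its size factors, no filter, the replicate number as a block, each library left out, 1 fit of all libraries for the within-line results and, added after seeing the data, limma 3.58.1 voom with a variance factor per line.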

Additional observations from a re-analysis of the deposited data

Results flagged for a closer look

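The interaction test of edgeR called the response to the RIG-I agonist different between lines for 10 members in 20 instances, given here as differences of log2 fold changes. For CT26 minus E0771 they were -1.96 for Trim12c, -1.97 for Trim14, 3.99 for Trim17, -0.71 for Trim21, -2.77 for Trim30a, -5.66 for Trim30b, -2.54 for Trim30d and -2.79 for Trim34a. For CT26 minus MC38 they were 1.02 for Trim6, 4.33 for Trim17, 0.86 for Trim21 and 3.32 for Trim30c. For E0771 minus MC38 they were 1.58 for Trim6, 1.43 for Trim12c, 2.52 for Trim14, 1.58 for Trim21, 2.43 for Trim30a, 5.71 for Trim30b, 1.84 for Trim30d and 2.61 for Trim34a. The values of Trim30b that involve E0771 are fitted against controls at 0 and depend on the prior count. Limma voom with a variance factor per line called 12 of the 20 instances, namely 5 for CT26 minus E0771, 4 for CT26 minus MC38 and 3 for E0771 minus MC38. On simulated counts the edgeR test called too many unchanged genes for CT26 minus E0771 and gave too many small p-values for E0771 minus MC38, so calls that voom did not make are given as values only.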

How the results depend on the processing

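Over all alternatives of the named members, 715 values kept their direction and call, 96 kept their direction without passing the threshold, and 0 changed sign. The same 48 members were found with CPM on unscaled totals. With the replicate number as a block, the members called higher were 14 and lower 2 in E0771. For the interactions under that block they were 4 higher and 12 lower for CT26 minus E0771, and 5 lower for CT26 minus MC38. The block lost 1 named call, Trim30a in E0771 (adjusted p = 0.106). Same-numbered libraries deviated together in E0771 (r = 0.639), less so in CT26 (r = 0.092, 0.084 and 0.262) and not in MC38 (r = -0.018), and no label says that a number marks a shared culture. In CT26 library 2 with the RIG-I agonist correlated best with control library 1, which does not bear on E0771. The numbers were taken as pairs in no line, so a deviation shared by same-numbered E0771 libraries counts as noise in its main test. Members not called in E0771 are to be read with that limit. In 1 fit of all 14 libraries, E0771 had 13 higher and 1 lower, and MC38 had 0 lower. DESeq2 gave 0 lower in MC38 and 4 lower for CT26 minus MC38. Limma voom gave 4 lower for CT26 minus E0771, 7 higher and 6 lower for CT26 minus MC38, and 3 higher for E0771 minus MC38. The cause of these shifts was not tested. E0771 was fitted with a spread of 0.041 alone, 0.0149 in the shared fit and 0.0047 with the replicate number as a block. That block left 1 residual degree of freedom in E0771.

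Leaving out each library in turn gave 20 to 24 higher and 7 to 10 lower in CT26, 5 to 7 higher and 0 lower in E0771, and 15 to 16 higher and 2 to 4 lower in MC38. For the interactions it gave 1 to 2 higher and 5 to 7 lower for CT26 minus E0771, 1 to 5 higher and 0 to 5 lower for CT26 minus MC38, and 5 to 10 higher and 0 lower for E0771 minus MC38. With 1 library left in a group, that library was assumed to vary like the others. Depth limits the low members: in E0771 and MC38 a group floor of 3 counts is 0.0959 to 0.12 CPM, against 0.0262 to 0.0274 CPM in CT26.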

Other observations

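Trim30e-ps1, a pseudogene of the chromosome 7 cluster left out by the rule, averaged 0.085 ± 0.056 CPM with the RIG-I agonist against 0.052 ± 0.069 CPM with the control agonist in CT26 (SD, n = 3 each). It had 0 CPM in all E0771 libraries, and in MC38 it had 0 CPM with the RIG-I agonist against a mean of 0.064 CPM with the control agonist. Summed over all 48 members, the level was 2471 ± 23.0 CPM with the RIG-I agonist against 1856 ± 96.7 CPM with the control agonist in CT26 (SD, n = 3 each). It was 2263 ± 130.2 CPM with RIG-I agonist against 1598 ± 27.3 CPM with control agonist in E0771, and 2494 ± 26.8 CPM with RIG-I agonist against 1890.0 ± 9.03 CPM with control agonist in MC38 (SD, n = 2 each).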
